A study of Mus musculus with 46 samples.

Results

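Ddx58, Trim14, Tdrd7 and Casp4 are 4 mouse genes of antiviral sensing and inflammatory cell death. They were followed here in mouse embryonic fibroblasts (MEFs) with and without the transcription factor ATF4. The 4 genes are 4 of 8986 rows tested in the count table, and they lie among 203 tested protein-coding genes of 2 intervals, chr4:5644090-55532466 and chr9:5308828-13292520 (GRCm38), where the row identifiers of the table match genes. They were selected on measured values, in part for high counts in ATF4 KO cells, so the difference between the genotypes is given as a description, with no test. All 4 met the minimum of a mean of 5 counts per 1000000 assigned counts (CPM) over the 46 libraries. Their means were 1114 CPM for Ddx58, 347.8 for Tdrd7, 40.7 for Trim14 and 7.95 for Casp4, the gene nearest to the minimum, and no member fell below it.

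RNA was measured by sequencing in 4 groups of MEF cultures, each labelled as biological replicates. Wild type MEFs, purchased from a cell repository, received either DMSO as the vehicle (11 libraries) or 600 nM borrelidin delivered in DMSO (12 libraries). ATF4 KO MEFs, a line made in house with CRISPR/Cas9 and cell sorting, received the vehicle (11 libraries) or 600 nM borrelidin (12 libraries). All cultures were taken after 7 h, and no group carried any other allele or agent that the labels name. The comparison within each line asks what borrelidin did to these transcripts, and the comparison of the responses asks whether they moved differently without ATF4. Since each genotype is 1 line, the loss of ATF4 and other differences between the lines cannot be told apart, and nothing used here says whether the KO line is 1 clone. The row of Atf4 itself was not analysed here. Libraries held 2047362 to 3467765 assigned counts, and the values below are CPM after TMM scaling, which adjusts library sizes for differences in composition.

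RIG-I, encoded by Ddx58, is a helicase that binds foreign or unprocessed RNA in the cytosol and signals through the mitochondrial adaptor MAVS to the kinases and transcription factors that induce type I interferon and NF-kB targets. TRIM14 is an adaptor at the mitochondrial membrane that takes part in MAVS signalling. TDRD7 is a Tudor domain protein of RNA granules that is induced by interferon and restricts some viruses. Casp4 encodes mouse caspase-11, which senses bacterial lipopolysaccharide in the cytosol and cleaves gasdermin D, leading to pyroptosis. Ddx58 is itself an interferon-stimulated gene, and Casp4 is known as a target of interferon and NF-kB. ATF4 is the transcription factor of the integrated stress response. Its translation rises when uncharged tRNA activates the kinase GCN2, as it does when borrelidin inhibits threonyl-tRNA synthetase. In bulk RNA of this kind, a change in the share of cells that express a gene and a change in RNA per cell cannot be told apart.

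Ddx58 (ENSMUSG00000040296) lies at chr4:40203773-40239828 on the minus strand, Tdrd7 (ENSMUSG00000035517) at chr4:45965334-46034761 on the plus strand, Trim14 (ENSMUSG00000039853) at chr4:46493781-46536141 on the minus strand and Casp4 (ENSMUSG00000033538) at chr9:5308828-5336783 on the plus strand. Promoter windows of 300 bases, 250 before and 50 after an annotated start, were available from RefSeq (GRCm38.p6) for 3 of the 4 genes. They are shown as a description only, since a high level in ATF4 KO was part of how the genes were chosen. Trim14 is named only. Of the 3 windows of Tdrd7, the one that holds a searched motif is printed, and of the 2 overlapping windows of Casp4 the first. Capitals mark an interferon-stimulated response element (ISRE) in Ddx58 and Tdrd7 and NF-kB motifs in Casp4, and each window is written along the strand of its gene.
Ddx58, chr4:40239776-40240075, minus strand: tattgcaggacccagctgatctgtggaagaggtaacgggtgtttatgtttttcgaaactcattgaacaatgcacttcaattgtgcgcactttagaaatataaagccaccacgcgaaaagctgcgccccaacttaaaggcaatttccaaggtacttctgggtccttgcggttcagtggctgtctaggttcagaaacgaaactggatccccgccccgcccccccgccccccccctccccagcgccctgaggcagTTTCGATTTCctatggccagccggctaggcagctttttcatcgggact
Tdrd7, chr4:45972047-45972346, plus strand: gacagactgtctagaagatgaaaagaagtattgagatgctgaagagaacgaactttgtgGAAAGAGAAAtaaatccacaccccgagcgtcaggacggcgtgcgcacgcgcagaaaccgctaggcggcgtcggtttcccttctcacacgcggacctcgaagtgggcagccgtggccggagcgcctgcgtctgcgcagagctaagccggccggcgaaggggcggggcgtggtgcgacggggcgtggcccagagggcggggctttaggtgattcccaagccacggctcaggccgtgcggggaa
Casp4, chr9:5308599-5308898, plus strand: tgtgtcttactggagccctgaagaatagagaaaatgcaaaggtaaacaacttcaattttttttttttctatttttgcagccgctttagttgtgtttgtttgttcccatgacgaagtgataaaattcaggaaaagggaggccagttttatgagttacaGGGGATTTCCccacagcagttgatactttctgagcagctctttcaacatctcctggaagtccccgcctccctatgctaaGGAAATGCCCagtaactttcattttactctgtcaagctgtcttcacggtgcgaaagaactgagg

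The ISRE was searched as GAAANNGAAA and the NF-kB motif as GGGNNTTTCC, on both strands. The ISRE of Ddx58 stands at bases 253 to 262 of its window, read on the opposite strand, and that of Tdrd7 at bases 60 to 69. The NF-kB motifs of Casp4 stand at bases 158 to 167 and, on the opposite strand, 237 to 246. An ISRE was present in 2 of the 6 windows of these genes and in 3.44% of all 32851 windows of the same length, and an NF-kB motif in 2 of 6, both of Casp4 and overlapping, and in 1.63% of all. The gamma-activated sequence TTCNNNGAA was in 0 of 6 windows and 8.3% of all, and the core of the ATF4 element, TTNCATCA, in 0 of 6 and 3.97% of all. The motif forms were chosen with the sequences seen, and a match describes letters only.

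Within 3 of the 4 groups, some libraries stood apart on the second principal component (22.1% of the variance of the 500 most variable rows). These were 8 of the 11 wild type libraries with vehicle, 3 of the 11 ATF4 KO libraries with vehicle and 3 of the 12 with borrelidin. No wild type library with borrelidin stood apart. The labels name no batch. The share of reads without a feature overlapped between the sets, with 67.6% to 69.9% in the 8 and 66.4% to 69.0% in the remaining 3 wild type libraries with vehicle. The share of reads aligned more than once was lower in the libraries that stood apart, with no overlap in any of the 3 groups. It was 3.69% to 4.18% against 4.24% to 4.47% in wild type with vehicle, 3.35% to 3.63% against 3.97% to 4.21% in ATF4 KO with vehicle, and 3.24% to 3.51% against 3.61% to 4.00% with borrelidin. Its part in the levels of the genes was not tested. The levels of Ddx58, Trim14 and Tdrd7 moved with this split in wild type with vehicle, so every response is given with all libraries and without these 14. For Casp4, at 0 to 6 counts per library in that group, the split cannot be read.

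Ddx58 was lowest in wild type with borrelidin and highest in ATF4 KO with borrelidin. In wild type with vehicle its level was 119 CPM in the lowest library, 245 at the median and 309.6 in the highest. In wild type with borrelidin it was 93.4 at the lowest, 124 at the median and 136.5 at the highest. In ATF4 KO with vehicle it was 1061 at the lowest, 1512 at the median and 1754 at the highest. With borrelidin the ATF4 KO libraries ran from 1974 CPM over a median of 2674 to 3409. Every ATF4 KO library lay above every wild type library, and every ATF4 KO library with borrelidin lay above every one with vehicle. The group means were 219 ± 70.8 CPM (SD, n = 11), 121 ± 13.0 (n = 12), 1439.5 ± 235 (n = 11) and 2629 ± 423 (n = 12) in the same order.

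Trim14 had the same order of groups at a far lower level. Wild type libraries with vehicle ran from 3.30 CPM over a median of 8.99 to 14.3, and those with borrelidin from 1.10 over 2.71 to 4.46. The latter rest on 3 to 12 counts per library. ATF4 KO libraries ran from 34.2 over 50.8 to 73.2 CPM with vehicle and from 58.7 over 85.7 to 158.9 with borrelidin. The lines did not overlap, while 9 of the 12 ATF4 KO libraries with borrelidin lay above the highest with vehicle and 3 fell within its range. The means were 8.28 ± 3.29 CPM (SD, n = 11), 2.73 ± 1.08 (n = 12), 55.3 ± 13.6 (n = 11) and 94.9 ± 28.7 (n = 12).

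Tdrd7 varied least among replicates. Its level in wild type ran from 158 CPM over a median of 176 to 197 with vehicle and from 92.6 over 117.5 to 131 with borrelidin. In ATF4 KO it ran from 418 over 516 to 619 CPM with vehicle and from 483 over 573 to 709.5 with borrelidin. All 12 wild type libraries with borrelidin lay below all 11 with vehicle, whereas in ATF4 KO only 2 of 12 libraries with borrelidin lay above the highest with vehicle. The means were 177 ± 12.2 CPM (SD, n = 11), 116 ± 9.83 (n = 12), 521 ± 59.3 (n = 11) and 578 ± 67.0 (n = 12).

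Casp4 was near the limit of detection in wild type cells. With vehicle its counts were 0 to 6 per library (median 3), or 0 to 1.99 CPM with a median of 0.963, and with borrelidin 1 to 7 (median 4.5), or 0.523 to 2.60 CPM with a median of 1.80. Both libraries without a count allow up to 1.10 and 1.26 CPM, the level of 3 counts, which covers counting error only. In ATF4 KO the level ran from 5.82 CPM over 10.5 to 13.0 with vehicle and from 8.07 over 19.4 to 34.9 with borrelidin. The ATF4 KO libraries all lay above the wild type ones, and 9 of 12 with borrelidin lay above the highest with vehicle. The means were 0.947 ± 0.572 CPM (SD, n = 11), 1.71 ± 0.636 (n = 12), 9.48 ± 2.36 (n = 11) and 19.2 ± 8.72 (n = 12).

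**Figure D1:**
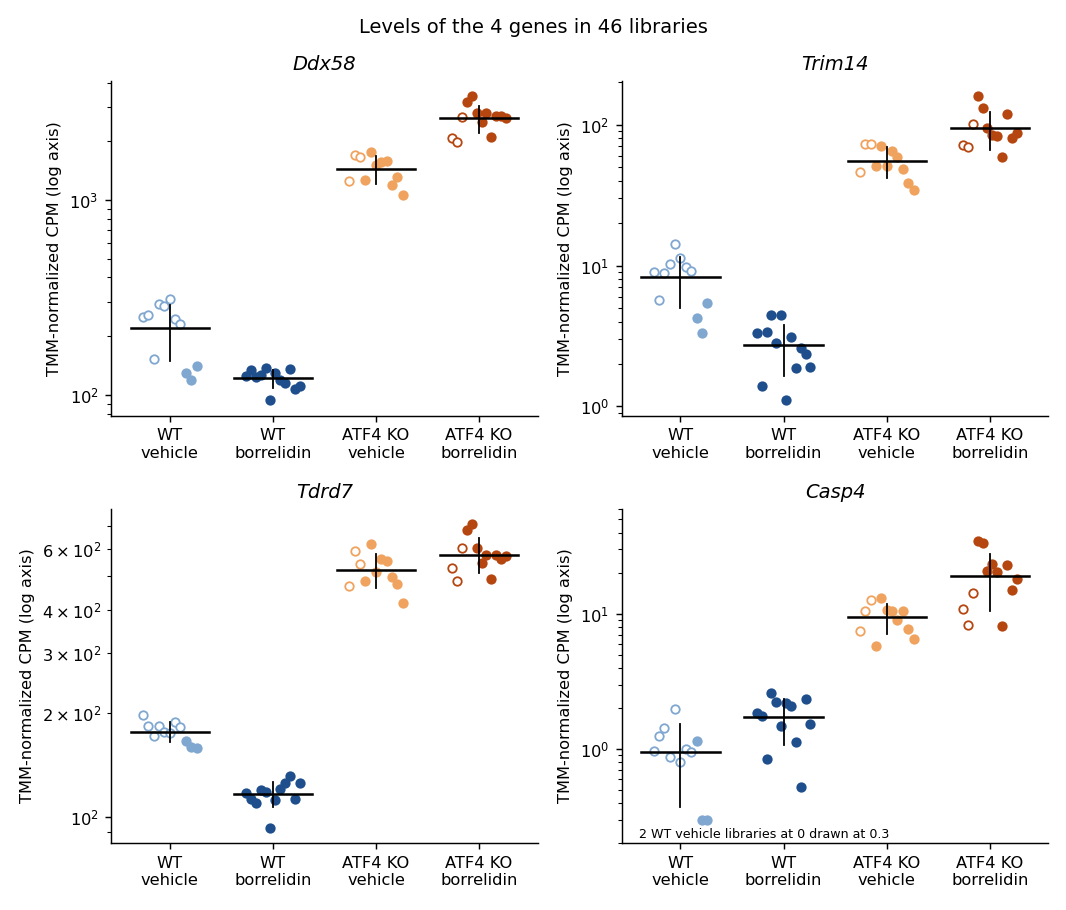
TMM-normalized CPM on log axes of Ddx58, Trim14, Tdrd7 and Casp4 in each of the 46 libraries, by group; bars give the mean and SD of all libraries of a group, and open circles the 14 libraries that stood apart on principal component 2. For each gene every ATF4 KO library sits above every wild type library, and for Ddx58 the open circles of wild type with vehicle, 153 to 309.6 CPM, sit above the 3 filled ones, 119 to 140 CPM.

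Between the lines, the fitted ratio of ATF4 KO to wild type under vehicle was 6.56-fold for Ddx58, 6.57-fold for Trim14, 2.95-fold for Tdrd7 and 9.48-fold for Casp4. Under borrelidin it was 21.7-fold for Ddx58, 34.3-fold for Trim14, 4.97-fold for Tdrd7 and 10.8-fold for Casp4. The groups of libraries did not overlap for 4 of 4 genes in either comparison, against 2.96% of all rows tested under vehicle and 4.97% under borrelidin. The genes were chosen for this contrast, so nothing is read from these counts. The median log2 ratio of the 4 genes was 2.71 under vehicle and 3.94 under borrelidin, beside -0.00133 and 0.0437 over all rows. Without the libraries that stood apart, the ratio under vehicle was 10.9-fold for Ddx58, 12.0-fold for Trim14 and 3.20-fold for Tdrd7. No such ratio is given for Casp4, since the 3 remaining wild type libraries with vehicle hold 3 counts of it in all.

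Levels of different genes were compared per kilobase of exon. In wild type with vehicle, Tdrd7 stood at 44.6 ± 3.07 CPM per kb and Ddx58 at 31.1 ± 10.0 (SD, n = 11), with overlapping ranges, and with borrelidin at 29.4 ± 2.48 and 17.2 ± 1.84 (n = 12), with separate ranges. In ATF4 KO this order was turned, with Ddx58 at 204 ± 33.3 and Tdrd7 at 132 ± 15.0 CPM per kb with vehicle (n = 11), where the ranges overlapped slightly, 150.5 to 249 against 106 to 156. With borrelidin Ddx58 reached 373 ± 60.1 and Tdrd7 146 ± 16.9 CPM per kb (n = 12), again apart. Trim14 (1.91, 0.629, 12.8 and 21.9 CPM per kb in the 4 groups) and Casp4 (0.255, 0.462, 2.56 and 5.18) ranked below both by mean level in each group, Casp4 lowest.

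In wild type cells the transcripts of the sensor, the adaptor and the Tudor protein were lower with borrelidin, but for the first pair that call rested on the libraries that stood apart. With all libraries, Ddx58 fell by 0.86 on the log2 scale (SE 0.13, adjusted p = 2.7e-07 in edgeR's quasi-likelihood test), Trim14 fell by 1.61 (SE 0.25, adjusted p = 5.3e-07) and Tdrd7 fell by 0.60 (SE 0.065, adjusted p = 1.3e-10). These 3 of 4 genes stand beside 32.9% of all rows and 40 of the 203 interval genes called lower. Casp4 passed the filter on low counts only through its level in ATF4 KO. Its change in wild type, 0.82 (95% interval 0.11 to 1.52), rests on 0 to 7 counts per library and is given as a value with no call.

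Without the libraries that stood apart, wild type with vehicle kept 3 libraries. The 8 others held Ddx58 at 253 ± 48.5 CPM and the remaining 3 at 129 ± 10.6 (SD), the latter close to the 121 ± 13.0 of the 12 libraries with borrelidin. The log2 change of Ddx58 was then -0.09 (95% interval -0.34 to 0.16, adjusted p = 0.69) and that of Trim14 -0.65 (-1.55 to 0.26, adjusted p = 0.35). Tdrd7 still fell by 0.47 (adjusted p = 0.00035). It was 1 of 4 genes called lower, beside 8.7% of all rows. For Tdrd7 no library with borrelidin overlapped those with vehicle, which held for 2.19% of all rows with all libraries and for 5.23% with the 3 remaining vehicle libraries. Which of the sets of vehicle libraries is the proper reference was not tested.

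In ATF4 KO cells borrelidin raised the transcripts of the sensor, the adaptor and the caspase. Ddx58 rose by 0.87 on the log2 scale (SE 0.12, adjusted p = 3.3e-07, edgeR), a 1.83-fold change, Trim14 by 0.78 (SE 0.16, adjusted p = 0.00012), or 1.71-fold, and Casp4 by 1.01 (SE 0.21, adjusted p = 0.00021), or 2.02-fold. The change of Tdrd7 was 0.15 (95% interval 0.02 to 0.28, adjusted p = 0.068). The 3 of 4 genes called higher stand beside 15.0% of all rows and 55 of the 203 interval genes. The median log2 change of the 4 genes was 0.823, beside -0.0251 over all rows and 0.0567 over the 203 interval genes. For Ddx58 the absence of overlap between the 12 and 11 libraries was shared by 1.1% of all rows. The members were chosen in part for high counts in ATF4 KO, and Casp4 reached the minimum of 5 CPM only through these libraries. The calls here and in the next paragraph are therefore not independent of that choice.

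The rise in ATF4 KO was larger without the libraries that stood apart. With 9 libraries of borrelidin and 8 of vehicle, Ddx58 rose by 0.98 (adjusted p = 5.5e-12), Trim14 by 0.94 (adjusted p = 2.0e-06), Casp4 by 1.25 (adjusted p = 6.2e-06) and Tdrd7 by 0.20 (adjusted p = 0.020). All 4 genes were then called higher, beside 21.7% of all rows. Ddx58 alone passed a stricter threshold of 1e-10, as did 0.619% of rows, and its 9 libraries again lay above the 8, as for 7.09% of rows. Among the 3 and 3 libraries that stood apart, Ddx58 rose by 0.60 (adjusted p = 0.012). There Trim14 changed by 0.39 (adjusted p = 0.18), Casp4 by 0.18 (adjusted p = 0.73) and Tdrd7 by 0.07 (adjusted p = 0.73).

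The response to borrelidin differed between the lines for 3 of the 4 genes. The response in ATF4 KO minus that in wild type was 1.72 on the log2 scale for Ddx58 (SE 0.18, adjusted p = 1.2e-10, edgeR), 2.38 for Trim14 (SE 0.29, adjusted p = 1.3e-08) and 0.75 for Tdrd7 (SE 0.091, adjusted p = 9.2e-09). For Casp4 it was 0.19, with a 95% interval of -0.78 to 1.17 that its few counts in wild type leave wide. The 3 of 4 genes stand beside 17.1% of all rows and 34 of the 203 interval genes with a larger response in ATF4 KO. Without the libraries that stood apart the differences were 1.07 for Ddx58 (adjusted p = 1.3e-06), 1.59 for Trim14 (adjusted p = 0.030) and 0.67 for Tdrd7 (adjusted p = 0.00011), beside 3.62% of all rows. This difference equals the contrast of the lines under borrelidin minus that under vehicle, so it shares its libraries with the values on which the genes were chosen and is not independent of that choice.

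**Figure D2:**
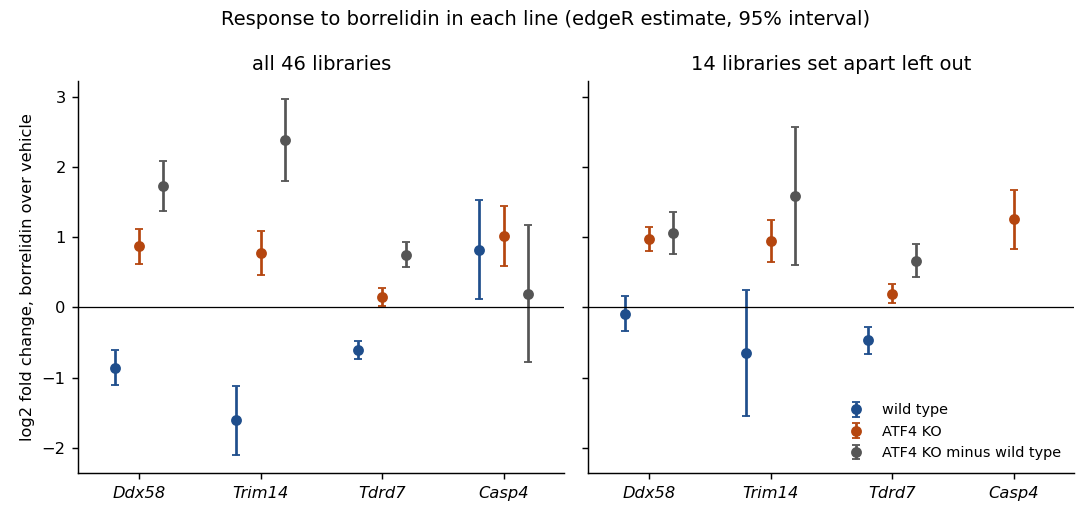
Log2 fold change with borrelidin over vehicle in wild type and in ATF4 KO and the difference between them, as edgeR estimates with 95% intervals; the left panel uses all 46 libraries and the right panel leaves out the 14 that stood apart, without the wild type values of Casp4, which rest on 3 counts. In ATF4 KO the estimates of Ddx58, 0.87 and 0.98, stay above 0 in both panels, while in wild type the estimate of Ddx58 moves from -0.86 to -0.09.

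The levels of the 4 genes were compared from library to library within the ATF4 KO groups. Among the 8 libraries with vehicle that did not stand apart, Pearson's r of log2 CPM was positive in 6 of 6 pairs, from 0.675 to 0.959, and among the 9 with borrelidin in 6 of 6, from 0.865 to 0.976. The closest pair was Ddx58 and Tdrd7 with borrelidin (r = 0.976, Spearman's rho = 0.967, exact permutation p = 5.5e-05, two-sided, adjusted p = 0.00059 over 12 relations, n = 9), with r = 0.952 after the 2 libraries farthest from the median of Ddx58 were left out. With vehicle the closest was Trim14 and Tdrd7 (r = 0.959, rho = 0.929, exact permutation p = 9.9e-05, adjusted p = 0.00059, n = 8), with r = 0.907 without 2 libraries. Of the 12 relations 10 passed an adjusted p of 0.05 by r and 7 by rho. Casp4 with Ddx58 (r = 0.72, rho = 0.667, exact permutation p = 0.049, adjusted p = 0.053, n = 8) and with Trim14 (r = 0.675, rho = 0.571, exact permutation p = 0.066, n = 8), both with vehicle, did not. Ddx58 and Casp4 with borrelidin had r = 0.892 and rho = 0.65 (exact permutation p = 0.0031 for r and 0.067 for rho, n = 9), and r = 0.644 without 2 libraries. Over all rows the median r with Ddx58 was -0.0096 with vehicle and -0.014 with borrelidin. The 95th percentile of r of all rows with a member ran from 0.711 to 0.782 with vehicle and from 0.659 to 0.678 with borrelidin. How many pairs of other rows are positive or pass the same test was not counted, so nothing is read from the counts of pairs. With borrelidin 0.0111% of 8985 rows were as close to Ddx58 as Tdrd7 was, a share that counts Tdrd7 itself, as the shares below count the members. With vehicle, in contrast, 7.22% of rows reached the r of Ddx58 with Casp4 and 6.48% of rows the lowest r of Casp4 with a member, while with borrelidin 1.01% reached the lowest r of Ddx58 with a member. All genes of a library share its RNA and depth.

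**Figure D3:**
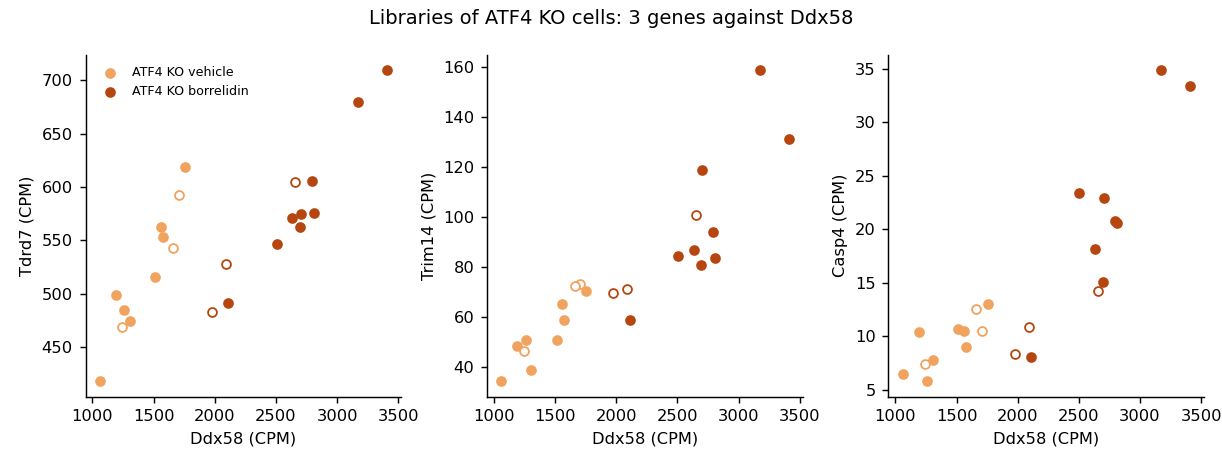
CPM of Tdrd7, Trim14 and Casp4 against CPM of Ddx58 in the 23 ATF4 KO libraries, with vehicle in light and borrelidin in dark; open circles are libraries that stood apart on principal component 2. Within each treatment libraries high in Ddx58 are high in Tdrd7, with r = 0.941 among 8 filled points with vehicle and 0.976 among 9 with borrelidin.

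Genes next to the members differed between the lines in both directions. Among the 14 tested protein-coding genes within 2 places of a member, the log2 ratio of ATF4 KO to wild type ran from -0.01 to 2.14 under vehicle (median 0.122) and from -1.35 to 3.00 under borrelidin (median -0.0933). Under vehicle 3 of the 14 were called higher in ATF4 KO and 0 lower, beside 18.1% and 17.2% of all rows, and under borrelidin 5 higher and 3 lower, beside 25.7% and 24.1%. Of the 203 interval genes 72 were higher and 18 lower under vehicle, and 66 higher and 50 lower under borrelidin. The largest of the lower neighbours was C9orf72, at place 2 from Ddx58, with -1.35 under borrelidin (adjusted p = 3.7e-15), followed by Anp32b near Trim14 with -0.64 (adjusted p = 1.8e-06). Next to Ddx58, Aco1, a cytosolic aconitase that also binds iron-responsive RNA elements, had a log2 ratio of 0.00 under vehicle (adjusted p = 0.98, edgeR), and Topors, a ubiquitin and SUMO ligase, -0.01 (adjusted p = 0.92), which became -0.23 (adjusted p = 0.0062) without the libraries that stood apart. Under borrelidin Aco1 was lower by a small amount, at -0.16 (adjusted p = 0.0023). Both highest values belong to Casp12, the gene next to Casp4 and itself a caspase, whose level was 4.57 ± 1.84 CPM (SD, n = 11) in wild type with vehicle, 2.22 ± 1.24 (n = 12) with borrelidin, and 20.4 ± 6.70 (n = 11) and 17.9 ± 6.90 (n = 12) in ATF4 KO. Casp12 was higher in ATF4 KO by 2.14 under vehicle (adjusted p = 2.8e-10) and 3.00 under borrelidin (adjusted p = 5.5e-14). With borrelidin Casp12 fell by 1.04 in wild type (adjusted p = 0.0022), a change of the same size, -1.04, without the libraries that stood apart, though it no longer passed (adjusted p = 0.11). Its change in ATF4 KO was -0.18 (adjusted p = 0.55), where Casp4 rose. Pdgfd, a growth factor gene one place further, was higher in ATF4 KO by 1.60 under vehicle (adjusted p = 6.0e-07) and 1.82 under borrelidin (adjusted p = 6.6e-08).

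**Figure D4:**
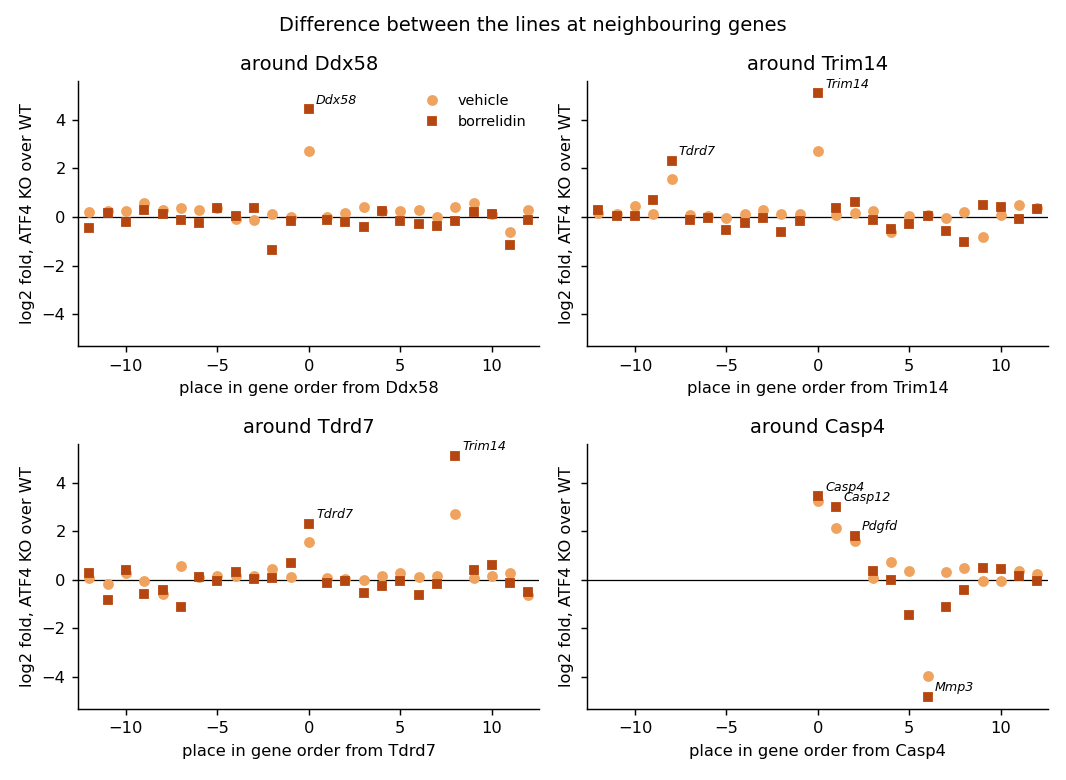
Log2 ratio of ATF4 KO to wild type, under vehicle and under borrelidin, for tested protein-coding genes up to 12 places in gene order to either side of each member; genes past 1.5 in either direction under borrelidin are named. Within 2 places of Ddx58, Tdrd7 and Trim14 the highest ratio is 0.69, of Ccdc180 under borrelidin, while Casp4 is followed by Casp12, at 2.14 and 3.00, and Pdgfd, at 1.60 and 1.82.

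Trim14 shares bases with other annotated genes. Nans, a sialic acid synthase gene on the opposite strand, overlaps it over 9852 bases, and the antisense transcript Gm16731 over 241 bases. Whether reads were counted by strand is not given in the sources used here, so reads of Trim14 and of these genes cannot be told apart within the shared bases. The mean level of Nans was 507, 529, 560 and 472 CPM over wild type with vehicle and borrelidin and ATF4 KO with vehicle and borrelidin. That of Gm16731 was 5.78, 4.75, 19.1 and 33.5 CPM, in the order of Trim14. Ddx58, Tdrd7 and Casp4 overlap no other annotated gene.

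Few other genes of these pathways could be read. Of 32 listed genes of RIG-I-like receptor signalling, 4 lie in the intervals, Ddx58, Trim14, Ripk2 and Topors. Of 78 interferon-stimulated genes there are 5, the 4 members and Casp12, of 26 genes of interferon and JAK-STAT signalling 3, of which Ifnk did not pass the filter on low counts, and of 26 caspase and pyroptosis genes 4, Casp4, Casp12, Birc2 and Birc3. Of 23 TRIM and Tudor genes there are 2, Trim14 and Tdrd7. In all 7 listed genes other than the members were tested. With borrelidin 1 of the 7 rose and 4 fell in wild type, beside 26.5% and 32.9% of all rows, and 1 rose and 0 fell in ATF4 KO, beside 15.0% and 15.3%. Without the libraries that stood apart these counts became 0 and 2 in wild type, beside 9.99% and 8.7%, and 2 and 1 in ATF4 KO, beside 21.7% and 20.1%. The genes called in wild type changed with it, to Ripk2 at -0.41 (adjusted p = 0.020) and Topors at -0.26 (adjusted p = 0.0019), and in ATF4 KO Ripk2 and Birc2 were then higher, by 0.42 and 0.24, and Topors lower, at -0.14 (adjusted p = 0.016). Ripk2, the kinase downstream of the NOD receptors, rose in ATF4 KO by 0.34 (adjusted p = 0.011) from 88.1 ± 7.22 CPM (SD, n = 11) to 111.7 ± 27.7 (n = 12). Birc2 and Birc3, the cellular inhibitors of apoptosis, fell in wild type by 0.37 (adjusted p = 0.00051) and 0.73 (adjusted p = 9.1e-08), and without the libraries that stood apart neither passed (adjusted p = 0.47 and 0.20). Il11ra1, the receptor subunit for interleukin 11, rose in wild type by 0.44 (adjusted p = 0.013), again not without those libraries (adjusted p = 0.82).

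By likeness of pattern, taken as the root mean square difference of centred log2(CPM + 1) over the 46 libraries, Ddx58 was closest to Trim14 (0.375), Pax5 (0.458) and Casp4 (0.773) among 194 candidate genes, for which the median was 1.88. Trim14 was closest to Ddx58 and then Pax5 (0.605), and Casp4 to Pax5 (0.63), Tdrd7 (0.705) and Ddx58. Tdrd7 was closest to Fam110b (0.512), Ccdc82 (0.514) and Casp12 (0.535), where the median of its candidates was 1.02. Pax5 had a mean of 0.322 CPM in wild type with vehicle, 0.157 with borrelidin, 9.57 in ATF4 KO with vehicle and 16.7 with borrelidin. It reached the minimum of 5 CPM for candidates only through ATF4 KO. The measure takes in the difference between the lines, on which the members were chosen, so closeness among members is not independent of that choice. The median of 1.88 is near the root mean square of Ddx58 about its own mean, 1.89, and so reflects the spread of Ddx58 itself.

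Pax5 is a defining transcription factor of B cells, so the marker lists were read beside these values. Of 4 B cell markers 2 lie in the intervals, Pax5 and Cd72, and Cd72 stood at 87.2, 88.2, 87.8 and 107 CPM in the 4 groups. The summed level of both ran from 74.4 to 111 CPM in wild type with vehicle, 70.8 to 151 with borrelidin, 79.2 to 114 in ATF4 KO with vehicle and 88.4 to 145 with borrelidin. Of 8 genes listed for other leukocytes 3 lie there. All 3 are chemokine genes and do not define leukocytes, so their levels do not measure leukocyte content. Ccl21a and Ccl19 were at 0 in every library, and Ccl27a, a chemokine, averaged 5.56, 9.41, 8.08 and 13.0 CPM in the 4 groups. Their summed level, all of it Ccl27a, ran from 2.89 to 8.79, 5.24 to 17.9, 3.43 to 12.0 and 6.85 to 20.5 CPM. Of 18 fibroblast markers 5 lie there, and their summed level ran from 656 to 833, 560 to 851, 433 to 711 and 418 to 641 CPM in the same order of groups, most of it Tpm2. The 5 did not share a direction. Means over wild type with vehicle and borrelidin and ATF4 KO with vehicle and borrelidin were 672, 609, 537 and 447 CPM for Tpm2, 7.81, 14.1, 0.489 and 0.435 for Mmp3 and 4.44, 10.7, 5.66 and 3.93 for Mmp13. They were 42.6, 25.2, 37.4 and 52.8 for Reck and 2.86, 1.77, 8.61 and 6.19 for Pdgfd, the gene near Casp4. Defining markers, such as Col1a1 and Vim for fibroblasts and Ptprc for leukocytes, lie outside the intervals and were not analysed here. The part of other cells in the values of the 4 genes was not tested.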

How the data were processed

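RNA of 46 MEF cultures was sequenced. The authors deposited raw read counts, 1 column per library, neither normalized nor pooled. The methods of the study give fastp, HISAT2 and feature counts. HTSeq, limma and mm10 appear in the notes of the submitters. No version, annotation release or strand setting was given. Of 55416 identifiers 52083 are in GENCODE M21. The 5 rows at the end of the table (reads without a feature, on average 69%, not aligned 10.8%, of low quality 5.09%, aligned more than once 3.97%, ambiguous 0.251%) entered neither library sizes nor tests. Across genes, mean levels followed the gene table of the study in both intervals (Pearson's r = 0.97 over 26 genes, among them the 4 members) and hardly elsewhere (r = 0.15 over 1767 genes), so no gene outside the intervals is named.

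Counts were fitted with edgeR 4.0.16 under R 4.3.3, with TMM scaling, the filterByExpr filter (8986 rows kept), the quasi-likelihood test on contrasts of the 4 group means and Benjamini-Hochberg adjustment over all rows. An adjusted p under 0.05 passed. The alternatives were DESeq2 1.42.0, limma 3.58.1 (voom), RLE scaling, no low count filter and a threshold of 1e-10. Further fits used blocks for replicate number or library set, 2 groups only, or a model of ATF4 activity and genotype. That model was run in edgeR with activity set only in wild type with borrelidin, whereas the study used limma and the ATF4 activity it had documented. Libraries stood apart where the widest gap on component 2 exceeded 50% of the range of the group. With 2047362 to 3467765 assigned counts per library, a gene at 1 CPM holds few counts. The cultures are biological replicates per the labels, and no pair within a group agreed within sampling noise (chi-square per degree of freedom at least 1.89).

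Replicate numbers come from the labels. For libraries with the same number, the deviations from the group means had r over 0.1 in all 11 pairs across both ATF4 KO groups (0.184 to 0.782), against 2 of 11 in wild type. Replicates 1, 2 and 3 stood apart in both ATF4 KO groups, so libraries of the same number also share that split. Libraries of different numbers were not compared, so whether the numbers mark pairs was not tested. On simulated counts of 8829 rows with 200 changed, the wild type comparison called 57.8%, 80.6% and 98.5% of log2 changes of 0.5, 1 and 2 (10 false calls), and the difference of responses 29.7%, 70.1% and 92.5% (7 false calls). The simulated libraries were independent, with no set that stood apart and the same mean of a row in all groups before the change. These rates therefore do not cover the split of libraries or members with few counts in wild type.

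The members and the 5 gene lists were chosen with earlier results of these data known. Genes named are the 4 members, tested genes of the lists, the 2 tested protein-coding genes on either side of a member, the 3 most alike to each member and the cell type markers. Gm16731 and Ifnk were added after their values were seen.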

Additional observations from a re-analysis of the deposited data

Results flagged for a closer look

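The response to borrelidin differed between the lines in edgeR for 3 members: 1.72 on the log2 scale for Ddx58, 2.38 for Trim14 and 0.75 for Tdrd7, each higher in ATF4 KO. The contrast shares its libraries with the values on which the members were chosen, so these 3 calls are not independent of that choice. Of the 7 listed genes other than the members, 4 passed with a larger response in ATF4 KO, beside 17.1% of all rows. They were Birc2 at 0.55 (adjusted p = 0.00087), Birc3 at 0.49 (adjusted p = 0.0078), Cntfr, a receptor of ciliary neurotrophic factor, at 0.57 (adjusted p = 0.0020) and Ripk2 at 0.37 (adjusted p = 0.048). Of the 14 neighbours, 0 passed with a larger response in ATF4 KO and 4 with a smaller one, beside 34 and 58 of the 203 interval genes. The 4 with a smaller response are near the share of the interval genes. The largest of these 4 were C9orf72 at -1.47 (adjusted p = 3.9e-10) and Anp32b at -0.75 (adjusted p = 0.00020). Of the genes alike to Tdrd7, Fam110b at 0.85 (adjusted p = 0.0037) and Ccdc82 at 0.46 (adjusted p = 0.021) passed. Without the libraries that stood apart, Ripk2 at 0.83 (adjusted p = 0.00036) passed, while Birc2 at 0.38 (adjusted p = 0.096), Birc3 at 0.10 (adjusted p = 0.81) and Cntfr at 0.49 (adjusted p = 0.084) did not. C9orf72 at -0.99 (adjusted p = 4.6e-07), Anp32b at -0.32 (adjusted p = 0.013) and Fam110b at 1.14 (adjusted p = 0.00028) passed again, while Ccdc82 at -0.07 (adjusted p = 0.84) did not.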

How the results depend on the processing

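The counts of members called were 3 lower in wild type, 3 higher in ATF4 KO and 3 with a larger response in ATF4 KO. At a threshold of 1e-10 each became 0. Without the libraries that stood apart the count in wild type became 1, and with only those libraries, a fit added after seeing the data, the count in ATF4 KO became 1, at 3 libraries against 3. The other alternatives gave 3 or 4. The difference of response of Casp4 turned sign, to -0.78 without the libraries that stood apart, where 3 counts remain in wild type with vehicle, and to -0.078 in limma voom. The cause of the change in wild type was not tested. In the fit of wild type groups alone Casp4 did not pass the filter and has no value. With a block for the replicate numbers the counts were 3, 3 and 3, no call of a member changed, and Ddx58 in ATF4 KO was 0.89. The ratios of the lines kept their direction under every alternative run. Depth limits Casp4 and Trim14 in wild type most.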
